A study of Mus musculus with 27 samples.

Results

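Amino acid and transmitter transporters move glutamate, GABA, glycine, taurine, creatine and the other amino acids across membranes, and they were followed here through the conversion of mouse microglia towards neuronal cells. The members are all gene symbols that begin with Slc1a, Slc3a, Slc6a, Slc7a, Slc36a, Slc38a or Slc43a and a digit, which gave 64 of the 24293 symbols listed. Of these, 61 are transporter genes of 13 functional groups and 3 carry the suffix os, namely Slc36a1os and Slc6a19os, which are annotated as long non-coding RNAs, and Slc7a6os, which codes for a protein that is not a transporter. Membership was set by symbol and by no measured value, but the families were chosen with earlier results of these data known.

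All RNA came from wild-type (WT) C57BL/6 mice, from cortex taken on postnatal day 1. The 5 RNA groups held 3 libraries each: day 7 microglia transduced with ND1, cultured cortical neurons, control day 7 microglia, day 2 microglia transduced with ND1, and control day 2 microglia. ND1-transduced cells received a lentivirus carrying ND1 and another carrying M2rtTA, a doxycycline-responsive activator, and were then kept in an induced-neuron medium of Neurobasal and B27 with BDNF, GDNF and NT3, to which doxycycline was added to switch on the transduced genes. The neurons were grown in Neurobasal with B27, and the labels give them no day. The labels neither spell out ND1 nor state the medium of the control cells, so ND1 itself cannot be told apart from virus, doxycycline, medium or growth factors as the source of a difference. Whether replicates came from separate cultures is not stated, and each p-value measures only the spread between these libraries. CpG methylation was measured in 1 ND1 library and 1 control library, whose labels give no day.

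Glutamate and GABA released at synapses are cleared by sodium-driven carriers of the Slc1 and Slc6 families, some of them placed on neurons and others mainly on astrocytes. The Slc7 light subunits work as exchangers at the plasma membrane and need a heavy subunit, Slc3a2 (CD98) or Slc3a1, to which they are bound by a disulfide bridge. Slc36 and some Slc38 proteins act at the lysosome, where amino acid levels are reported to the growth kinase mTORC1, and the Slc38 carriers of the plasma membrane pass glutamine between glia and neurons. Slc7a11 exchanges cystine for glutamate in support of glutathione synthesis, and its gene, like those of several other carriers, is known to be switched on by ATF4 when amino acids are short and by NRF2 under oxidative stress.

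Levels are FPKM, fragments scaled to transcript length and to sequencing depth by the authors, and they can be compared between genes because they are given per length. A log2 change is a difference of group means of log2(FPKM + 1), which understates changes of weakly expressed genes. A gene is called, and said to rise or fall, where limma's Benjamini-Hochberg adjusted p over 13602 tested genes was under 0.05 and the log2 change was at least 1 in size. FPKM sums ran from 429013 to 739846 per library and were lower in the ND1 day 7 and neuron libraries than in the other libraries. The number of genes at 1 FPKM or more was 10709 to 12092. The files hold no read counts.

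The labelled cell types were checked against their markers. Summed FPKM of 10 microglia markers was 302 to 400.3 in ND1 day 7 libraries, 17.3 to 18.8 in neurons and 7691 to 7922 in control day 7 libraries, and it was 3328 to 3656 in ND1 day 2 libraries against 4373 to 4506 in control day 2 libraries. Tmem119, a marker of mature microglia, averaged at least 1 FPKM in control day 7 libraries and in none of the other groups. The 10 neuron markers summed to 4231 to 4235 FPKM in ND1 day 7 libraries, 3305 to 3610 in neurons, 21.4 to 29.1 in control day 7 libraries, 682 to 846 in ND1 day 2 libraries and 23.7 to 27.2 in control day 2 libraries. Neurod1, a neurogenic transcription factor, was listed at 36.7, 32.6 and 32.5 FPKM in ND1 day 7 libraries and at 3073, 3454 and 3337 in ND1 day 2 libraries, against at most 2.16 in every control library.

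Of the 64 members, 39 reached 1 FPKM in at least 3 libraries and were tested. The other 25 stayed at or below 1.13 FPKM in every library, and 2 of them, Slc6a19os and Slc7a12, were listed at 0 throughout. Among those not tested were the kidney and gut carriers Slc6a18, Slc6a19 and Slc7a9, the glycine carrier Slc6a5 of inhibitory nerve endings, the noradrenaline and dopamine carriers Slc6a2 and Slc6a3, and the heavy subunit Slc3a1. By the highest group mean, 15 members lay below 0.1 FPKM, 10 between 0.1 and 1, 12 between 1 and 10, 25 between 10 and 100, and 2, Slc3a2 and the taurine carrier Slc6a6, above 100. Of the 39 tested members, 16 had their highest mean in neurons, 11 in control day 2, 5 in ND1 day 7, 5 in control day 7 and 2 in ND1 day 2.

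**Figure D1:**
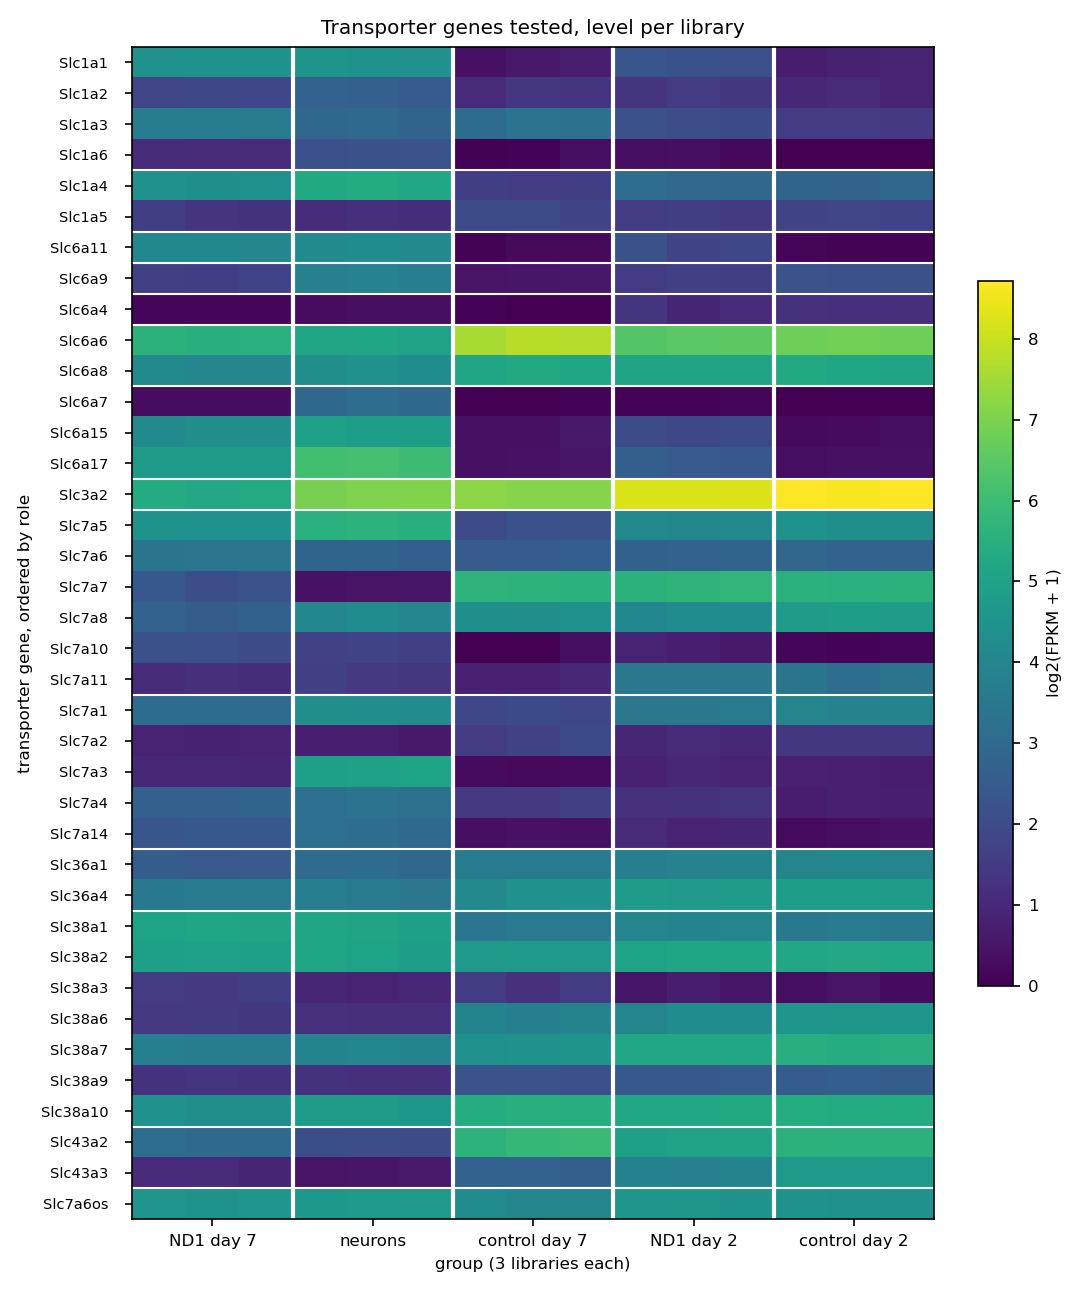
Each row is 1 of 38 tested members, ordered by role with white lines between roles, and each column is 1 of 15 libraries in 5 groups of 3; colour gives log2(FPKM + 1). Slc3a2 is brightest in control day 2 libraries, Slc6a17 in neurons and Slc6a6 in control day 7 libraries.

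At day 7, 13 of 39 tested members rose and 10 fell in ND1 cells against control microglia. Over all 13602 tested genes, 25.7% rose and 24.5% fell, beside 33.3% and 25.6% of the tested members. Whether the shares of the members differ from those of all genes was not tested. The median log2 change was 0.28 over the members and 0.04 over all tested genes. The members that rose were carriers of glutamate, GABA, glycine and neutral and cationic amino acids, and those that fell included Slc7a7, Slc43a2, Slc38a6, Slc6a6 and Slc3a2. At day 2, 4 members rose, namely Slc6a17, Slc6a11, Slc6a15 and Slc1a1, and 0 fell, where 9.09% of all tested genes rose and 0.618% fell. When no size of change was asked, 16 members were lower at day 2 by limma at an adjusted p under 0.05, or 41.0% of those tested, against 36.3% of all tested genes, and likewise 16 members at an unadjusted p under 0.05.

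**Figure D2:**
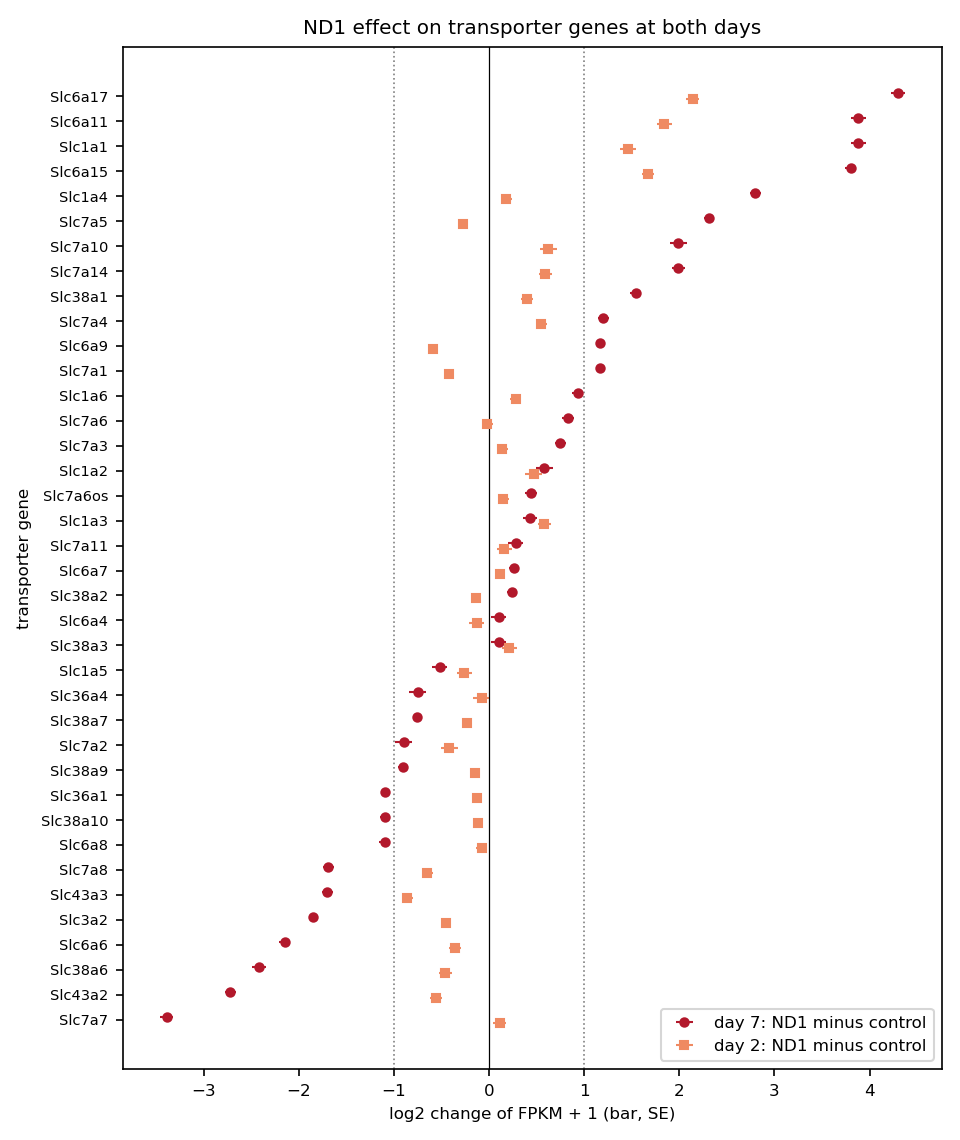
Log2 change of ND1 over control for 38 tested members, at day 7 (red circles) and at day 2 (orange squares), with standard errors as bars and dotted lines at 1 and -1. Slc6a17 leads at both days with 4.30 and 2.14, while Slc7a7 stands at -3.39 at day 7 and at 0.11 at day 2.

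The group of sodium-driven glutamate carriers has 5 members, of which 4 were tested. At day 7, 1 of the 4, Slc1a1, rose in ND1 cells, where 25.7% of all tested genes rose. Slc1a1 codes for the glutamate and cysteine carrier EAAT3 of neurons (mm10 chromosome 19, 28835135 to 28913960). Slc1a1 was listed at 20.1, 21.5 and 21.3 FPKM in ND1 day 7 libraries, at 22.1, 21.6 and 20.3 in neurons, and at 0.319, 0.522 and 0.653 in control day 7 libraries. ND1 and neuron values overlapped, and all 6 lay far above the control values. The log2 change of ND1 over control at day 7 was 3.88 (SE 0.08, limma adjusted p = 5.35e-15), and that of ND1 day 7 over neurons was -0.02 (SE 0.08, limma adjusted p = 0.803). Slc1a1 at day 2 was listed at 4.05, 3.55 and 3.37 FPKM in ND1 libraries, against 0.570, 0.753 and 0.765 in control libraries, a log2 change of 1.46 (SE 0.08, limma adjusted p = 2.13e-09) that was 0.97 after quantile normalization.

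The 250 bases before the annotated Slc1a1 start, GRCm38.p6 (mm10) chr19:28834885-28835134 on the plus strand, are shown because the promoter of this strongly risen gene is rich in CG dinucleotides and carried almost no methylation in either library. Sequences here and below are RefSeq's, 5′ to 3′ on the strand of the gene, and capitals mark each CG here.
Slc1a1 promoter: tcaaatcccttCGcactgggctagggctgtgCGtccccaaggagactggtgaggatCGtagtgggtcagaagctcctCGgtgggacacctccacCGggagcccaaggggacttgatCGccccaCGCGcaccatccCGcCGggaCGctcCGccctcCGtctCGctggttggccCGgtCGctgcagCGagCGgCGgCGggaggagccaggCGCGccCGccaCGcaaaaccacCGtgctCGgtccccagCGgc
It holds 27 CG, and the mean methylation over these CpGs was 2.94% in the ND1 library and 1.55% in the control library.

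Slc1a3 codes for GLAST, a glutamate carrier mainly of astrocytes. Slc1a3 was listed at 11.9, 11.5 and 11.2 FPKM in ND1 day 7 libraries, at 6.49, 6.84 and 5.99 in neurons and at 7.56, 8.89 and 8.62 in control day 7 libraries. The ND1 values were the highest of the 3 groups without overlap, but the log2 change over control, 0.43 (SE 0.07), was below the size for a call. With time in control microglia Slc1a3 rose to these day 7 values, against 1.83, 1.93 and 1.75 FPKM in control day 2 libraries, by a log2 change of 1.72 (SE 0.07, limma adjusted p = 8.41e-11). The 10 astrocyte markers summed to 67.9 to 73.2 FPKM in control day 7 libraries against 17.7 to 19.1 in control day 2 libraries, and Gfap averaged 25.7 FPKM in control day 7 libraries and 2.88 in control day 2 libraries. In ND1 cells Slc1a3 rose as well, against 3.52, 3.29 and 2.92 FPKM in ND1 day 2 libraries, by a log2 change of 1.57 (SE 0.07, limma adjusted p = 1.84e-11), and the astrocyte sum was 27.8 to 28.8 FPKM in ND1 day 7 libraries and 17.6 to 19.5 in ND1 day 2 libraries. The part of astrocytes in the rise of Slc1a3 was not tested, and in these bulk libraries fewer cells of a type and less RNA per cell cannot be told apart for any gene.

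Slc1a2, which codes for GLT-1, the main glutamate carrier of astrocytes, stayed low in cultures of every kind. Slc1a2 was listed at 2.50, 2.69 and 2.59 FPKM in ND1 day 7 libraries, 5.74, 5.40 and 4.70 in neurons and 1.10, 1.59 and 1.56 in control day 7 libraries, with a log2 change of ND1 over control of 0.58 (SE 0.09). Slc1a6, the EAAT4 carrier known from Purkinje cells, reached 1.16, 1.09 and 1.12 FPKM in ND1 day 7 libraries and 3.35, 3.52 and 3.65 in neurons, and ND1 cells were lower than neurons by a log2 change of -1.09 (SE 0.06, limma adjusted p = 2.87e-09). The 5 glutamate carriers summed to 36.2 ± 0.593 FPKM in ND1 day 7 libraries and 36.7 ± 1.68 in neurons, against 10.4 ± 1.20 in control day 7 libraries (SD, n = 3 each). Slc1a1 made up 57.8% of that sum in ND1 day 7 libraries and 58.0% in neurons, and Slc1a3 made up 80.6% of it in control day 7 libraries.

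Slc1a4 codes for ASCT1, an exchanger of serine, alanine and other small neutral amino acids. Slc1a4 was listed at 20.3, 19.3 and 19.7 FPKM in ND1 day 7 libraries, 38.0, 40.2 and 35.7 in neurons and 2.09, 1.85 and 2.05 in control day 7 libraries. All 3 groups were apart, and the log2 change of ND1 over control was 2.80 (SE 0.06, limma adjusted p = 5.89e-15). At day 2 the groups were near each other, with 7.68, 6.81 and 6.64 FPKM in ND1 libraries and 6.03, 5.81 and 6.46 in control libraries. The ND1 effect on Slc1a4 was larger at day 7 than at day 2 by 2.62 on the log2 scale (SE 0.08, limma adjusted p = 2.72e-12). Control microglia had less of it at day 7 than at day 2, by a log2 change of -1.25 (SE 0.06, limma adjusted p = 5.56e-10). Slc1a5, the related glutamine exchanger ASCT2, had means between 1.23 FPKM in neurons and 2.84 in control day 7 libraries and was called in none of the 7 comparisons.

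Slc6a11 codes for GAT3, a GABA carrier known chiefly from astrocytes (mm10 chromosome 6, 114131241 to 114249886), and it rose in ND1 cells at both days. Slc6a11 was listed at 16.0, 15.7 and 15.4 FPKM in ND1 day 7 libraries, 17.0, 17.9 and 16.3 in neurons and 0.0724, 0.158 and 0.164 in control day 7 libraries. The ND1 values were just below those of neurons, and the log2 change between these groups was -0.12 (SE 0.08, limma adjusted p = 0.180), while ND1 over control was 3.88 (SE 0.08, limma adjusted p = 2.88e-15). Slc6a11 at day 2 was already listed at 3.46, 2.47 and 2.66 FPKM in ND1 libraries, against 0.0750, 0.0719 and 0.0657 in control libraries. That day 2 rise was 1.84 on the log2 scale (SE 0.08, limma adjusted p = 8.78e-11).

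The 10 astrocyte markers summed to 27.8 to 28.8 FPKM in ND1 day 7 libraries, 16.3 to 16.6 in neurons and 67.9 to 73.2 in control day 7 libraries, where Slc6a11 was at most 0.164 FPKM. The list was split: at an unadjusted limma p under 0.05, 4 markers were higher and 4 lower in ND1 day 7 than in control day 7 libraries. Gfap averaged 4.64 FPKM in ND1 day 7 and 25.7 in control day 7 libraries, and Aldoc 10.2 and 8.93. The part of astrocytes in the level of Slc6a11 was not tested. Slc6a12 and Slc6a13, betaine and GABA carriers, had group means of at most 0.356 FPKM.

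**Figure D3:**
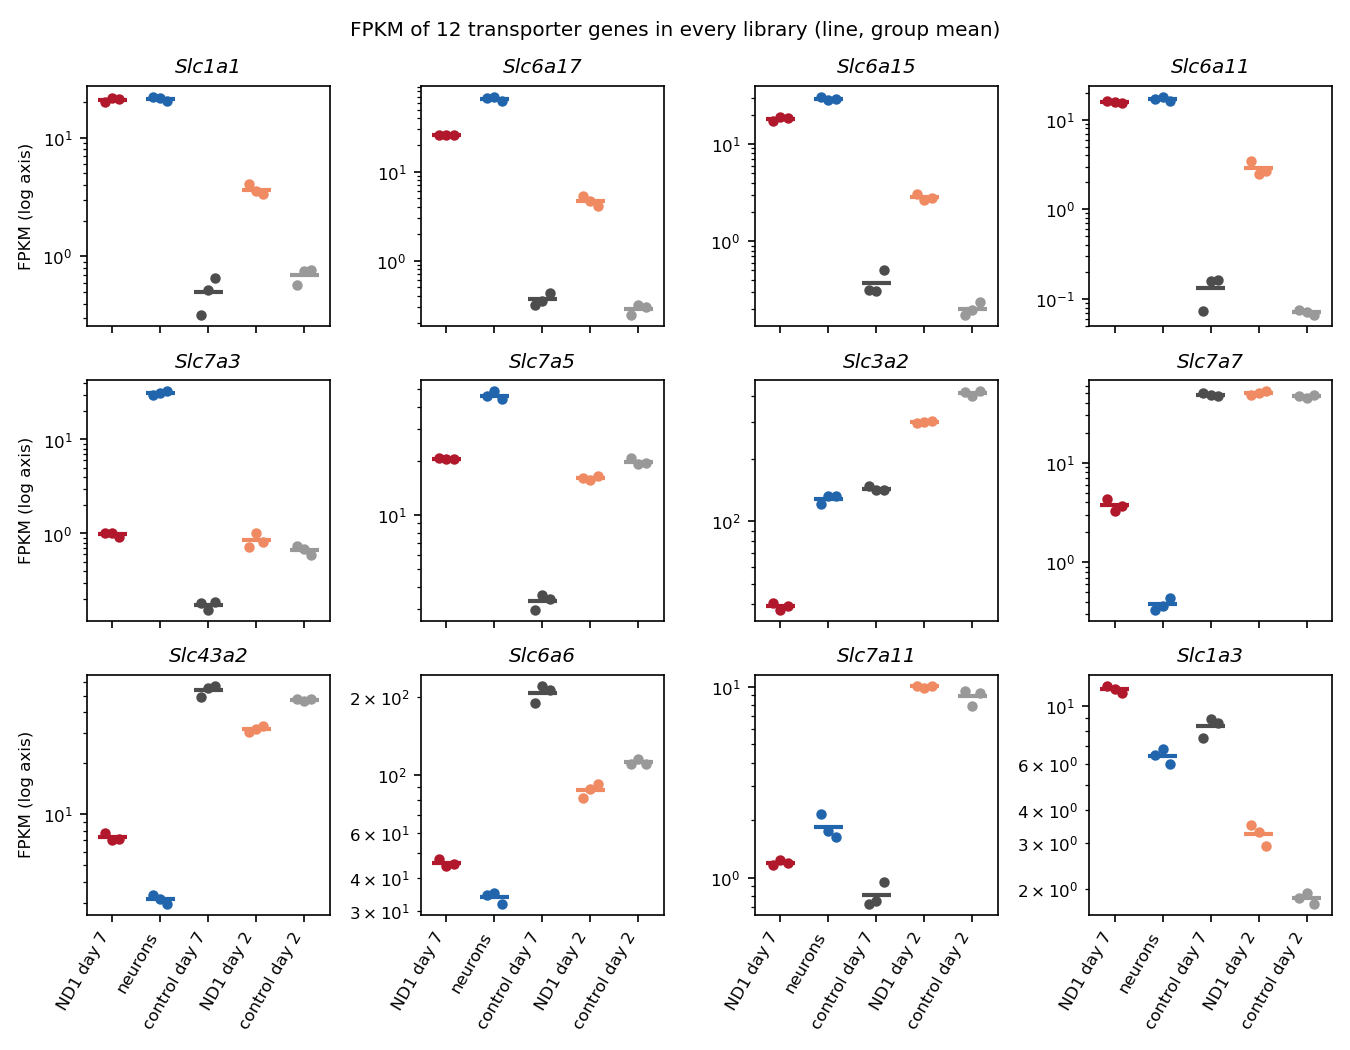
FPKM of 12 members in each of the 15 libraries on a log axis, which differs between panels; points are libraries and lines are group means. Slc1a1 and Slc6a11 lie at nearly the same level in ND1 day 7 libraries and neurons, whereas Slc7a3 is near 1 FPKM in ND1 day 7 libraries and near 31 in neurons.

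Of the neutral amino acid carriers of the Slc6 family, Slc6a15 and Slc6a17 rose in ND1 cells at both days, and Slc6a7 passed 1 FPKM in the neuron libraries and in no other library. Slc6a17 codes for NTT4, a neutral amino acid carrier of synaptic vesicles (mm10 chromosome 3, 107467548 to 107518018). Slc6a17 was listed at 25.7, 26.2 and 25.8 FPKM in ND1 day 7 libraries, 67.3, 69.4 and 62.0 in neurons and 0.319, 0.352 and 0.429 in control day 7 libraries. The 3 groups did not overlap, and the log2 change over control was 4.30 (SE 0.07, limma adjusted p = 4.53e-16) and the largest day 7 rise among the tested members. Against neurons the log2 change was -1.32 (SE 0.07, limma adjusted p = 4.02e-10). Slc6a17 at day 2 was listed at 5.28, 4.65 and 4.15 FPKM in ND1 libraries and 0.243, 0.315 and 0.297 in control libraries, a log2 change of 2.14 (SE 0.07, limma adjusted p = 5.02e-12).

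RefSeq gives Slc6a17 a start at the end of the gene model and another inside it, and the 250 bases before each are shown because their CG content and methylation differ. Both lie on the minus strand, at chr3:107518019-107518268 for the outer start and chr3:107500741-107500990 for the inner one (GRCm38.p6), and capitals mark each CG.
Slc6a17 outer start: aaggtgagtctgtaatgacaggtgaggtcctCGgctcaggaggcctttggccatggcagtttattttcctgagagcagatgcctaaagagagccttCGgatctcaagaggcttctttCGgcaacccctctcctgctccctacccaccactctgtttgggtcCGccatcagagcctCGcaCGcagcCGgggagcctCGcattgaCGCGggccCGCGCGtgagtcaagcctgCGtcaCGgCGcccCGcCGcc
Slc6a17 inner start: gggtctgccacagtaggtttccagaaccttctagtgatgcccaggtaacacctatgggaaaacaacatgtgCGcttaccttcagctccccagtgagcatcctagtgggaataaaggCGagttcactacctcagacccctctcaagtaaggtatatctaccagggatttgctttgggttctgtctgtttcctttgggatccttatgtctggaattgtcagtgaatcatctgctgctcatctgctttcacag
The outer window holds 18 CG, of which 16 were measured in both libraries, with means of 5.21% in the ND1 library and 6.50% in the control library. The inner window holds 2 CG, with means of 82.9% in the ND1 library and 82.7% in the control library.

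Slc6a15, a carrier of branched-chain amino acids and proline in neurons, was listed at 17.1, 19.0 and 18.4 FPKM in ND1 day 7 libraries, 30.5, 28.1 and 28.9 in neurons and 0.316, 0.307 and 0.504 in control day 7 libraries. No values of these groups overlapped, and the log2 change over control was 3.80 (SE 0.06, limma adjusted p = 7.05e-16). Slc6a15 at day 2 was listed at 3.03, 2.68 and 2.81 FPKM in ND1 libraries, against 0.173, 0.197 and 0.238 in control libraries, a log2 change of 1.67 (SE 0.06, limma adjusted p = 3.15e-11). Slc6a7, the proline carrier of glutamatergic neurons, was listed at 0.231, 0.217 and 0.223 FPKM in ND1 day 7 libraries, 6.71, 7.66 and 6.62 in neurons and 0, 0 and 0.0575 in control day 7 libraries. Slc6a7 passed the filter for testing only through the neuron libraries. Its lower level in ND1 cells than in neurons, a log2 change of -2.71, is therefore given as a description and not as a test.

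Slc6a9 codes for GlyT1, which clears glycine around synapses. Slc6a9 was listed at 2.11, 2.09 and 2.39 FPKM in ND1 day 7 libraries, 12.8, 13.7 and 12.4 in neurons and 0.385, 0.429 and 0.461 in control day 7 libraries. ND1 cells were apart from both other groups, with log2 changes of 1.17 over control (SE 0.05, limma adjusted p = 4.22e-11) and -2.13 against neurons (SE 0.05, limma adjusted p = 5.22e-13), and the rise over control was 0.63 after quantile normalization. At day 2 ND1 libraries lay below control libraries, with 1.87, 2.16 and 2.09 FPKM in ND1 libraries and 3.67, 3.54 and 3.46 in control libraries, a log2 change of -0.59 that was below the size for a call. Within ND1 cells the day 7 and day 2 levels overlapped, whereas in control microglia day 7 lay below day 2 by a log2 change of -1.68 (SE 0.05, limma adjusted p = 1.58e-11). Slc6a4, the serotonin carrier, was listed at 1.46, 0.849 and 1.11 FPKM in ND1 day 2 libraries and at 1.39, 1.31 and 1.28 in control day 2 libraries, and at day 7 it was at most 0.120 FPKM in ND1 libraries and 0.0611 in control libraries.

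The carriers of taurine and creatine both fell in ND1 cells at day 7, where 24.5% of all tested genes fell. Slc6a6, which takes up taurine, was listed at 47.6, 44.6 and 45.6 FPKM in ND1 day 7 libraries, 34.6, 35.1 and 31.8 in neurons and 189.6, 221 and 213 in control day 7 libraries. ND1 values lay above those of neurons and well below those of control microglia, with a log2 change over control of -2.15 (SE 0.06, limma adjusted p = 1.08e-13). At day 2 Slc6a6 stood at 81.8, 88.5 and 92.1 FPKM in ND1 libraries and 111, 115 and 111 in control libraries, and in control microglia it was higher at day 7 than at day 2 by a log2 change of 0.88, under the size for a call. Slc6a8, which takes up creatine, was listed at 16.7, 15.4 and 15.4 FPKM in ND1 day 7 libraries and 34.0, 37.7 and 33.7 in control day 7 libraries, a log2 change of -1.10 (SE 0.06, limma adjusted p = 2.61e-10) that was -0.94 after quantile normalization.

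The heavy subunit Slc3a2 (mm10 chromosome 19, 8706882 to 8723369) was the most abundant member in 3 of the groups. Slc3a2 was listed at 40.4, 37.6 and 39.1 FPKM in ND1 day 7 libraries, 121, 132 and 132 in neurons and 147, 141 and 141 in control day 7 libraries. ND1 day 7 libraries had the lowest values of any group. The log2 changes were -1.85 over control (SE 0.04, limma adjusted p = 1.19e-14) and -1.69 against neurons (SE 0.04, limma adjusted p = 3.93e-13). Slc3a2 at day 2 was listed at 297, 301 and 304 FPKM in ND1 libraries and 417, 398 and 421 in control libraries. Both kinds of culture had less of it at day 7 than at day 2, by log2 changes of -2.92 in ND1 cells and -1.52 in control microglia.

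Of the 6 tested light subunits that pair with it, 2 rose and 2 fell at day 7, where 25.7% of all tested genes rose and 24.5% fell. Slc7a7 codes for y+LAT1, an exchanger of cationic and neutral amino acids (mm10 chromosome 14, 54369442 to 54420068), and had the largest day 7 fall among the tested members. Slc7a7 was listed at 4.30, 3.25 and 3.68 FPKM in ND1 day 7 libraries, 0.334, 0.366 and 0.433 in neurons and 50.2, 48.6 and 46.6 in control day 7 libraries. The ND1 values lay between neurons and control without overlap, and the log2 changes were -3.39 over control (SE 0.07, limma adjusted p = 3.16e-15) and 1.78 against neurons (SE 0.07, limma adjusted p = 2.33e-11). Slc7a7 at day 2 stood at 48.1, 50.5 and 52.5 FPKM in ND1 libraries and 46.8, 45.1 and 48.0 in control libraries, with a log2 change of 0.11 (SE 0.07, limma adjusted p = 0.171). The ND1 day 7 mean of Slc7a7 was 7.72% of the control day 7 mean.

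Slc7a5 codes for LAT1, the carrier of large neutral amino acids that is known for bringing leucine into growing cells. Slc7a5 was listed at 20.7, 20.5 and 20.5 FPKM in ND1 day 7 libraries, 45.6, 48.6 and 43.8 in neurons and 3.00, 3.61 and 3.45 in control day 7 libraries. Slc7a5 at day 2 was listed at 16.1, 15.6 and 16.5 FPKM in ND1 libraries and 20.7, 19.2 and 19.5 in control libraries. The ND1 day 7 values lay above those of ND1 day 2, by a log2 change of 0.34 that was not called, whereas control microglia at day 7 lay far below those at day 2. The day 7 log2 change of ND1 over control was 2.31 (SE 0.05, limma adjusted p = 1.51e-14), that in control microglia with time was -2.26 (SE 0.05, limma adjusted p = 1.01e-12), and that of ND1 day 7 against neurons was -1.12 (SE 0.05, limma adjusted p = 2.7e-10).

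Slc7a10, the Asc-1 carrier of serine and glycine, was listed at 3.48, 3.40 and 2.99 FPKM in ND1 day 7 libraries, 2.26, 2.34 and 2.14 in neurons and 0, 0 and 0.259 in control day 7 libraries. ND1 cells had the highest values of the 3 groups, with a log2 change over control of 1.99 (SE 0.09, limma adjusted p = 1.65e-11). Slc7a8, the LAT2 carrier, was listed at 5.73, 4.98 and 5.46 FPKM in ND1 day 7 libraries, 15.3, 17.3 and 14.6 in neurons and 19.2, 18.9 and 20.6 in control day 7 libraries. It was lowest in ND1 cells, by log2 changes of -1.69 over control (SE 0.06, limma adjusted p = 3.73e-12) and -1.39 against neurons (SE 0.06, limma adjusted p = 1.88e-10). Slc7a6, the y+LAT2 exchanger, averaged 9.49 ± 0.299 FPKM in ND1 day 7 libraries and 4.89 ± 0.217 in control day 7 libraries (SD, n = 3 each), a log2 change of 0.83 that was not called. Slc7a6os lies 1.72 kb from it and Slc6a19os overlaps Slc6a19, and the strand used in counting is not stated for these pairs.

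Slc7a11, the cystine and glutamate exchanger xCT, was high at day 2 and low at day 7 in ND1 cells and control microglia alike. Slc7a11 was listed at 1.16, 1.24 and 1.19 FPKM in ND1 day 7 libraries, 2.16, 1.75 and 1.63 in neurons and 0.727, 0.754 and 0.950 in control day 7 libraries. Slc7a11 at day 2 stood at 10.1, 9.86 and 10.1 FPKM in ND1 libraries and 9.46, 7.91 and 9.30 in control libraries. Every day 2 library lay above every day 7 library, and the log2 changes with time were -2.33 in ND1 cells (SE 0.08, limma adjusted p = 1.12e-12) and -2.45 in control microglia (SE 0.08, limma adjusted p = 1.1e-11). The log2 changes of ND1 over control were 0.28 at day 7 and 0.16 at day 2, neither of them called, and the difference between them was 0.12 (SE 0.11, limma adjusted p = 0.296).

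The 250 bases before the annotated Slc7a11 start, chr3:50443614-50443863 on the minus strand (GRCm38.p6), are shown because they hold a pair of matches to TGATGNAA, the core of the amino acid response element. Matches on either strand are in capitals, and they begin 66 and 47 bases before the start.
Slc7a11 promoter: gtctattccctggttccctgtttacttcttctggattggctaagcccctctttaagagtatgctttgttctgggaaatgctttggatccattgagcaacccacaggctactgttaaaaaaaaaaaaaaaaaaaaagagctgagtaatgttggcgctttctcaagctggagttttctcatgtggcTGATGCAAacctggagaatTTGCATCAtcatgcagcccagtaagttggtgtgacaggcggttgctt
The match is a description of these letters and not of a bound factor. TGATGNAA occurred, on either strand, in 3.97% of 32851 RefSeq windows that run from 250 bases before to 50 after a start, and in 4 of 67 windows of the members.

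As shares of their summed FPKM, the light subunits were led by Slc7a5 in ND1 day 7 libraries and neurons and by Slc7a7 in the other 3 groups. Slc7a5 held 47.1 ± 0.527% of the sum in ND1 day 7 libraries, 64.0 ± 0.686% in neurons and 4.33 ± 0.448% in control day 7 libraries (SD, n = 3 each). Slc7a7 held 8.55 ± 1.06% in ND1 day 7 libraries, 0.528 ± 0.0976% in neurons and 62.7 ± 2.02% in control day 7 libraries. At day 2 the shares of ND1 and control cells lay nearer to each other, with Slc7a7 at 50.1% in ND1 libraries and 42.9% in control libraries, and Slc7a5 at 16.0% in ND1 libraries and 18.2% in control libraries. Slc7a6 held 21.7% in ND1 day 7 libraries and 7.93% in neurons. The ratio of Slc3a2 to the summed light subunits was 0.906, 0.873 and 0.897 in ND1 day 7 libraries, 1.69, 1.72 and 1.95 in neurons and 1.89, 1.84 and 1.83 in control day 7 libraries. It was lowest in the ND1 day 7 libraries, and at day 2 it was 3.06, 3.00 and 2.93 in ND1 libraries and 3.78, 3.75 and 3.85 in control libraries.

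**Figure D4:**
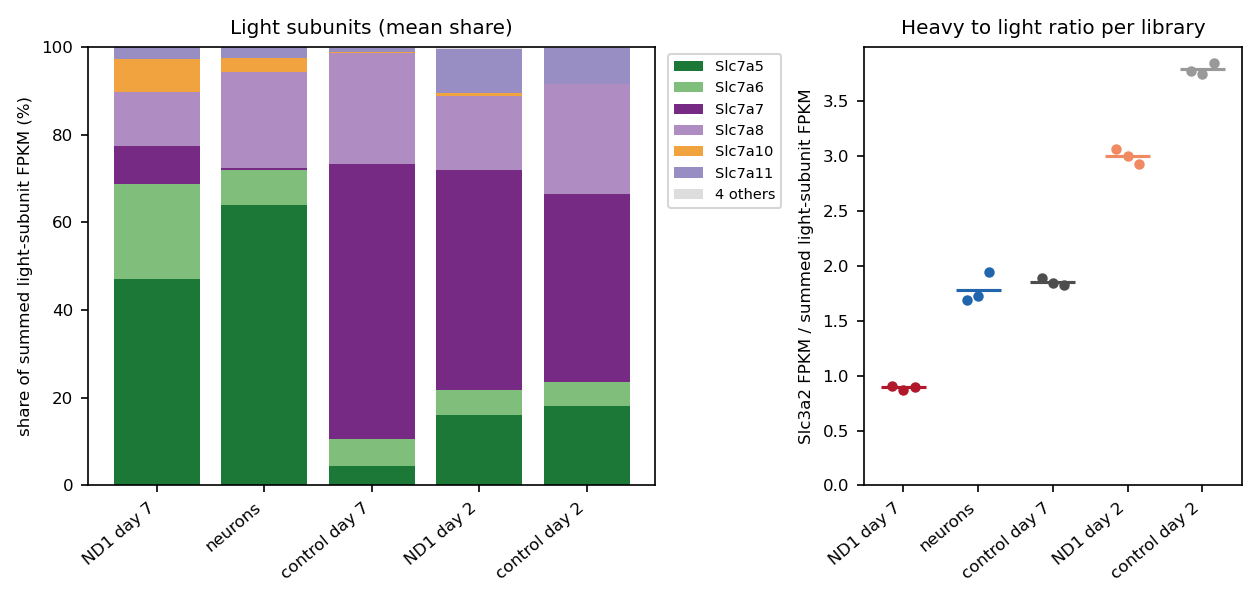
Left, mean share in percent of each light subunit in the summed light-subunit FPKM of a group; right, the ratio of Slc3a2 FPKM to that sum, with points for libraries and lines for group means. Slc7a7 fills most of the control day 7 bar at 62.7% and Slc7a5 most of the neuron bar at 64.0%, and the ratio is lowest in ND1 day 7 libraries at 0.892.

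Of the 5 cationic amino acid carriers, all of them tested, 3 rose at day 7, where 25.7% of all tested genes rose. Slc7a1 codes for CAT1, a widely used arginine and lysine carrier. Slc7a1 was listed at 7.40, 7.43 and 7.25 FPKM in ND1 day 7 libraries, 18.7, 18.4 and 17.4 in neurons and 2.64, 2.88 and 2.66 in control day 7 libraries. ND1 cells stood between the other groups without overlap, with log2 changes of 1.17 over control (SE 0.04, limma adjusted p = 3.09e-12) and -1.20 against neurons (SE 0.04, limma adjusted p = 1.6e-11). Slc7a1 at day 2 was listed at 10.1, 10.2 and 10.8 FPKM in ND1 libraries and 14.7, 13.7 and 14.4 in control libraries. Day 7 values thus lay below day 2 values in both kinds of culture, and by more in control microglia.

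Slc7a3 codes for CAT3, the cationic carrier typical of neurons (mm10 chromosome X, 101079146 to 101090452), and had the largest log2 change between ND1 day 7 cells and neurons among the tested members. Slc7a3 was listed at 1.00, 1.02 and 0.909 FPKM in ND1 day 7 libraries, 29.5, 31.2 and 32.5 in neurons and 0.180, 0.155 and 0.189 in control day 7 libraries. The neuron libraries stood far above all others, with a log2 change of ND1 day 7 against neurons of -4.02 (SE 0.06, limma adjusted p = 1.12e-14), while ND1 over control at 0.75 was not called. Slc7a3 held 5.18% of the summed cationic carriers in ND1 day 7 libraries and 47.2% in neurons. Slc7a14, a lysosomal member of this branch, was listed at 4.02, 4.24 and 4.22 FPKM in ND1 day 7 libraries, 8.17, 7.59 and 6.81 in neurons and 0.277, 0.331 and 0.303 in control day 7 libraries, a log2 change over control of 1.99 (SE 0.07, limma adjusted p = 1.01e-12). Slc7a4 was listed at 5.41, 5.41 and 5.96 FPKM in ND1 day 7 libraries and 1.76, 1.74 and 2.14 in control day 7 libraries, a log2 change of 1.20 that was 0.92 after quantile normalization. Slc7a1, Slc7a4 and Slc6a9 fell outside the rule for genes named at day 7 and were added after their values were seen.

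Of the sodium-coupled neutral carriers of the Slc38 family 11 are members and 7 were tested. At day 7, 1 of the 7 rose and 2 fell, where 25.7% of all tested genes rose and 24.5% fell. Slc38a1, the SNAT1 carrier that supplies neurons with glutamine, was listed at 32.3, 33.6 and 33.0 FPKM in ND1 day 7 libraries, 34.8, 32.8 and 29.0 in neurons and 9.83, 10.9 and 11.3 in control day 7 libraries. ND1 and neuron values overlapped, and the log2 change over control was 1.54 (SE 0.06, limma adjusted p = 7.53e-12). Its neighbour on chromosome 15, Slc38a2, lies 44.0 kb away and codes for SNAT2, a carrier that cells make more of when amino acids are short. Slc38a2 was listed at 29.0, 31.1 and 29.9 FPKM in ND1 day 7 libraries, 33.6, 32.3 and 28.1 in neurons and 25.3, 24.8 and 25.4 in control day 7 libraries, a log2 change over control of 0.24 (SE 0.05).

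Slc38a6, a brain carrier of the same family, was listed at 1.75, 1.80 and 1.68 FPKM in ND1 day 7 libraries, 1.34, 1.24 and 1.29 in neurons and 14.4, 12.6 and 14.0 in control day 7 libraries. It fell by a log2 change of -2.42 (SE 0.07, limma adjusted p = 1.08e-13), and at day 2 it stood at 14.6, 17.7 and 17.8 FPKM in ND1 libraries and 23.1, 23.7 and 22.8 in control libraries. Slc38a10 was listed at 20.4, 19.0 and 18.8 FPKM in ND1 day 7 libraries and 41.2, 44.7 and 41.9 in control day 7 libraries, a log2 change of -1.10 that was -0.90 after quantile normalization. Slc38a9, the lysosomal arginine sensor that signals to mTORC1, was listed at 1.43, 1.46 and 1.45 FPKM in ND1 day 7 libraries, 1.40, 1.33 and 1.29 in neurons and 3.72, 3.69 and 3.36 in control day 7 libraries. The ND1 values were the lower ones without overlap with control, but the log2 change of -0.91 (SE 0.05) was under the size for a call. Slc36a1, a proton-coupled carrier of the lysosome, was listed at 4.91, 4.56 and 4.61 FPKM in ND1 day 7 libraries and 10.9, 11.1 and 11.3 in control day 7 libraries, and fell by a log2 change of -1.09 (SE 0.05, limma adjusted p = 1.43e-11).

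Both tested members of the Slc43 family fell at day 7, where 24.5% of all tested genes fell. Slc43a2, the LAT4 carrier of large neutral amino acids, was listed at 7.77, 7.03 and 7.15 FPKM in ND1 day 7 libraries, 3.32, 3.17 and 2.95 in neurons and 49.3, 55.7 and 57.1 in control day 7 libraries. ND1 cells lay between the other groups, with log2 changes of -2.72 over control (SE 0.06, limma adjusted p = 5.4e-15) and 1.00 against neurons (SE 0.06, limma adjusted p = 1.67e-09). The change against neurons sits at the threshold and was 0.97 without ND1 day 7 replicate 1 and also without neuron replicate 3. Slc43a3, known as a carrier of purine nucleobases, was listed at 1.10, 1.04 and 0.877 FPKM in ND1 day 7 libraries, 0.370, 0.456 and 0.538 in neurons and 5.68, 5.62 and 5.18 in control day 7 libraries, a log2 change over control of -1.70 (SE 0.06, limma adjusted p = 9.27e-13).

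The microglia marker sum of 302 to 400.3 FPKM in ND1 day 7 libraries stands against 7691 to 7922 in control day 7 libraries, and over the same libraries the group mean in ND1 cells was 7.72% of control for Slc7a7, 12.8% for Slc38a6, 13.5% for Slc43a2, 18.3% for Slc43a3, 22.1% for Slc6a6, 27.2% for Slc3a2, 27.5% for Slc7a8, 42.3% for Slc36a1, 45.1% for Slc6a8 and 45.6% for Slc38a10. The part that remaining microglia had in these levels was not tested.

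In ND1 cells 11 members rose and 12 fell between day 2 and day 7, where 22.6% of all tested genes rose and 21.1% fell. In control microglia 2 rose, Slc1a3 and Slc38a3, and 8 fell, where 3.90% of all tested genes rose and 3.79% fell. The 8 that fell were Slc7a11, Slc7a5, Slc7a1, Slc43a3, Slc6a9, Slc3a2, Slc1a4 and Slc6a4, which made 20.5% of the tested members. Of these, Slc6a4 passed the filter only through day 2 libraries. Slc38a3 passed it only through day 7 libraries, so its rise and the fall of Slc6a4 are descriptions and not tests. Slc7a11, Slc43a3 and Slc3a2 fell and Slc1a3 rose with time in both kinds of culture, with log2 changes for Slc43a3 of -2.84 in ND1 cells and -2.00 in control microglia. Slc38a3, a glutamine carrier known from astrocytes, was listed at 1.86, 1.39 and 1.92 FPKM in control day 7 libraries and 0.245, 0.372 and 0.194 in control day 2 libraries, and its log2 change of 1.10 was 0.94 after quantile normalization.

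Of the 15 tested genes of the amino acid starvation response 8 fell and 1, Ddit4, rose in ND1 cells between day 2 and day 7, with a median log2 change of -1.08 against 0.11 over all tested genes. Of all tested genes 21.1% fell and 22.6% rose in that comparison. In control microglia 8 of the 15 fell and 0 rose in limma's test, also 0 at an unadjusted p under 0.05, with a median log2 change of -1.18 against 0.01 over all tested genes. Of all tested genes 3.79% fell and 3.90% rose there. Trib3, a target of ATF4, fell to 5.78 ± 0.437 FPKM in control day 7 libraries, against 71.4 ± 4.42 in control day 2 libraries, and Asns, which makes asparagine, fell to 14.99 ± 0.793 FPKM in control day 7 libraries, against 64.4 ± 2.31 in control day 2 libraries (SD, n = 3 each). Atf4 itself was at 187 ± 5.41 FPKM in control day 7 libraries and 314 ± 8.86 in control day 2 libraries, a log2 change of -0.75 that was not called. These 3 genes were named after their values were seen. ND1 day 7 cells against control day 7 microglia had 3 of these 15 genes higher and 6 lower, where 25.7% of all tested genes were higher and 24.5% lower. Against neurons they had 1 of the 15 higher and 9 lower, where 7.29% of all tested genes were higher and 6.24% lower.

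The difference of the ND1 effects, day 7 minus day 2, was called in 12 members as positive and in 7 as negative, where 20.5% of all tested genes were called as positive and 20.8% as negative. The positive ones were led by Slc1a4, Slc7a5 and Slc1a1 with 2.62, 2.60 and 2.42, and the negative ones by Slc7a7, Slc43a2 and Slc38a6 with -3.50, -2.16 and -1.96. For Slc6a8, with -1.02, and Slc7a8, with -1.04, the call rested on single libraries: Slc6a8 was -0.98 without control day 2 replicate 3, -0.97 without control day 7 replicate 2 and just short of the threshold without ND1 day 7 replicate 2, and Slc7a8 was -0.99 without ND1 day 7 replicate 2.

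How far the rising members had come by day 2 was read as the ND1 day 2 mean minus the control day 2 mean, in percent of the ND1 day 7 mean minus the control day 2 mean. Over 9 members with at least 5 FPKM in ND1 day 7 libraries and at least 2 times the control day 2 level, this share had a median of 15.02%. It ran from 6.88 ± 4.09% for Slc1a4 to 17.9 ± 3.37% for Slc6a11 (SD over 3 ND1 day 2 libraries). Slc6a17 stood at 17.2 ± 2.20%, Slc38a1 at 16.7 ± 0.869%, Slc6a15 at 14.7 ± 0.974% and Slc1a1 at 14.6 ± 1.74%. Over the 2889 tested genes that met the same condition the median was 16.2%, with quartiles at 13.0% and 17.6%, and Slc1a4 stood below that range and Slc6a11 just above it.

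Against neurons, ND1 day 7 cells had 2 members higher and 10 lower, where 7.29% of all tested genes were higher and 6.24% lower. The 10 lower members were 25.6% of those tested, and the median log2 change was -0.25 over the members and 0.06 over all tested genes. The higher ones were Slc7a7 and Slc43a2, both also high in control microglia. Among the lower ones were the cationic carriers Slc7a3 and Slc7a1, the proline carrier Slc6a7, the glycine carrier Slc6a9, the vesicular carrier Slc6a17, the glutamate carrier Slc1a6, and Slc3a2 with its partners Slc7a8 and Slc7a5. Neurons against control day 7 microglia had 17 members higher and 6 lower, where 28.1% of all tested genes were higher and 25.3% lower. Slc6a7 is counted among these 17 and among the 10 above, although only the neuron libraries brought it through the filter. Of the 6 lower members, Slc7a2 was at -1.06 and lost its call at -0.94 without control day 7 replicate 3. These comparisons share libraries with each other, so their values are set side by side and not counted as separate evidence.

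Other genes of amino acid and transmitter handling were read from lists by function, with the same test at day 7. Over all tested genes 25.7% rose and 24.5% fell in that comparison, which is the background of each list count at day 7 here and below. Of 5 tested vesicular transmitter carriers 3 rose and 1 fell. Slc17a6, the vesicular glutamate carrier VGLUT2, was listed at 6.23, 7.18 and 6.20 FPKM in ND1 day 7 libraries, 13.1, 11.99 and 11.4 in neurons and 0.00755, 0.00780 and 0 in control day 7 libraries. Slc17a7, or VGLUT1, was listed at 4.46, 4.41 and 4.51 FPKM in ND1 day 7 libraries, 6.75, 7.19 and 7.64 in neurons and 0, 0.0469 and 0.187 in control day 7 libraries. Slc32a1, which loads GABA into vesicles, was listed at 9.58, 9.66 and 8.92 FPKM in ND1 day 7 libraries, 43.1, 48.8 and 44.3 in neurons and 0.418, 0.296 and 0.312 in control day 7 libraries. The 3 carriers were apart from control in every ND1 library, with log2 changes of 2.90, 2.34 and 2.95. Slc18a1, a vesicular monoamine carrier, fell by a log2 change of -1.35 (SE 0.06, limma adjusted p = 9.98e-12).

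Among 11 genes of glutamate, glutamine and GABA metabolism 5 rose and 1 fell, where 25.7% of all tested genes rose and 24.5% fell. The GABA-making enzyme genes Gad1 and Gad2 rose in ND1 cells. Gad1 averaged 28.0 ± 1.40 FPKM in ND1 day 7 libraries, 166 ± 8.67 in neurons and 1.87 ± 0.140 in control day 7 libraries, and Gad2 averaged 6.33 ± 0.284 FPKM in ND1 day 7 libraries, 32.7 ± 2.29 in neurons and 0.149 ± 0.0357 in control day 7 libraries (SD, n = 3 each). Glul, the glutamine synthetase gene, fell, with 56.3 ± 2.83 FPKM in ND1 day 7 libraries, 35.0 ± 1.11 in neurons and 273 ± 5.30 in control day 7 libraries. Aldh5a1, of GABA breakdown, rose by a log2 change of 2.20. Of 8 serine and glycine synthesis genes 1 rose, Srr, which makes D-serine, by a log2 change of 1.58 (SE 0.05, limma adjusted p = 3.87e-13). Against neurons, ND1 cells had 1 of the 8 higher and 5 lower, where 7.29% of all tested genes were higher and 6.24% lower.

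Of 12 tested genes of glutathione handling and NRF2 targets 1 rose and 6 fell at day 7, where 25.7% of all tested genes rose and 24.5% fell. The 1 that rose, Chac1, was named after its values were seen and is also counted among the starvation response genes. Nfe2l2, which codes for NRF2, was listed at 12.3, 9.88 and 10.5 FPKM in ND1 day 7 libraries, 1.49, 1.42 and 1.64 in neurons and 186, 174 and 183 in control day 7 libraries, a log2 change over control of -3.94 (SE 0.06, limma adjusted p = 5.44e-16). Its targets Hmox1 and Srxn1 fell by log2 changes of -3.33 and -2.23, and Gpx4, a peroxidase that uses glutathione, by -1.49. Of 15 starvation response genes 3 rose, with Ddit4 at 3.41, and 6 fell, with Nupr1, Cebpb and Ddit3 at -3.49, -3.03 and -2.89. In the same comparison Slc7a11 had the log2 change of 0.28 given above.

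Of 22 genes of mTORC1 amino acid sensing 2 rose and 9 fell at day 7, where 25.7% of all tested genes rose and 24.5% fell. Of the 4 Rag GTPase genes, Rragb rose and Rragc fell. Rragb was at 13.8 ± 0.860 FPKM in ND1 day 7 libraries, 31.5 ± 0.630 in neurons and 0.264 ± 0.177 in control day 7 libraries, and Rragc was at 29.8 ± 0.492 FPKM in ND1 day 7 libraries, 21.5 ± 0.714 in neurons and 143 ± 2.52 in control day 7 libraries (SD, n = 3 each). Rraga and Rragd, named after their values were seen, were not called, with log2 changes of 0.89 and -0.11. Tfeb, a regulator of lysosome genes, and Fnip2, a folliculin partner, fell by log2 changes of -3.15 and -2.47. Of 7 genes of creatine and taurine synthesis and use 2 rose and 3 fell. Csad, which fell and was named after its values were seen, averaged 1.92 FPKM in ND1 day 7 and 4.99 in control day 7 libraries. Cdo1, of cysteine breakdown to taurine, and Ckmt1, a mitochondrial creatine kinase, rose by 3.57 and 3.65, and Gatm and Gamt, which make creatine, fell by 2.70 and 1.51 on the log2 scale, beside the fall of the creatine carrier Slc6a8. Of 5 tested partner and trafficking genes 2 rose, Stx1a by 4.32 and Nedd4l by 2.72, and 1 fell, Sgk1, by 1.37 on the log2 scale.

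Promoter methylation was read as the mean methylated percent over CpGs within 500 bases of each RefSeq start, where at least 5 CpGs were measured in both libraries. Of the 64 members 46 had an entry, with 67 starts. Their median was 13.8% in the ND1 library and 14.1% in the control library, and the median difference, ND1 minus control, was -0.142 percentage points. Over all 27937 starts the medians were 14.3% in the ND1 library and 14.2% in the control library, and the median difference was 0.0779. The differences of the members ran from -12.3 points at the Slc38a4 start at chromosome 15, 97055956, to 12.1 points at the Slc6a12 start at chromosome 6, 121342574, both of them genes whose group means were at most 0.356 FPKM. With 1 library each and no read counts, the depth is unknown and no difference can be tested.

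In the control library 26 of the 67 starts, or 38.8%, were under 10%, against 46.9% of all starts. Slc1a1 stood at 4.64% in the ND1 library and 4.67% in the control library, and the outer Slc6a17 start at 3.59% in the ND1 library and 4.56% in the control library. Slc6a11 stood at 13.2% in the ND1 library and 12.3% in the control library, Slc7a10 at 11.9% in the ND1 library and 11.8% in the control library, and Slc7a14 at 6.83% in the ND1 library and 6.25% in the control library. These 5 genes had control day 7 means of at most 0.498 FPKM, and in the control library none of these starts was over 12.3%. Slc6a9 showed both kinds of start, with 10.1% in the ND1 library and 8.94% in the control library at its outermost start, against 80.8% in the ND1 library and 82.1% in the control library at the next one inward. Slc7a1 likewise had 0.883% in the ND1 library and 0.870% in the control library at its outer start, against 89.4% in the ND1 library and 91.2% in the control library at its inner one.

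Of the 10 members that fell, 7 had a start with a methylation value. The 5 starts of Slc7a7 lay between 5.06% and 14.4% in the ND1 library and between 5.21% and 15.1% in the control library, Slc38a6 stood at 1.08% in the ND1 library and 0.949% in the control library, and Slc3a2 at 1.26% in the ND1 library and 1.20% in the control library. Slc7a11 stood at 16.3% in the ND1 library and 14.1% in the control library. A difference of more than 5 points, in either direction, was seen at 8 of 67 starts, or 11.9%, against 8.43% of all starts. All 8 were starts of members below the filter for testing, with group means of at most 0.356 FPKM.

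**Figure D5:**
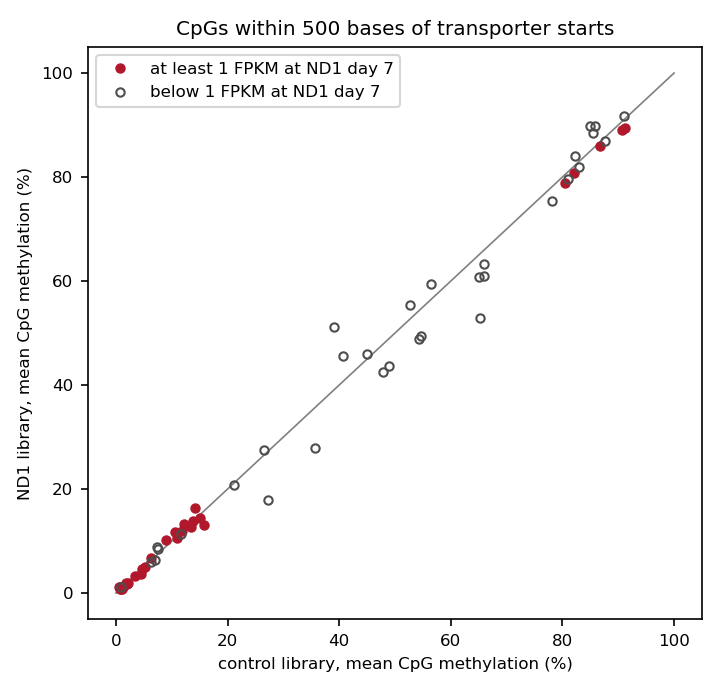
Mean CpG methylation in percent within 500 bases of 67 member starts, in the ND1 library (vertical axis) and the control library (horizontal axis), with the line of equality; filled points are starts of genes with a mean of at least 1 FPKM in ND1 day 7 libraries and open points those below. Points lie along the line, and filled points gather below 20%, apart from 5 starts near or above 80%.

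Motifs were searched on both strands of the RefSeq windows, from 250 bases before to 50 after each start. The E-box form CAGATG was found in 11 of 67 member windows, or 16.4%, and in 17.2% of all 32851 windows, and the form CAGCTG in 14, or 20.9%, and in 16.3% of all. Among the members called higher at day 7, CAGATG was present in a window of Slc6a17 and of Slc6a9. The antioxidant response element core TGACNNNGC was found in 11 member windows, or 16.4%, and in 12.4% of all. None of the 4 motifs searched contains another.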

How the data were processed

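RNA abundance was taken from 15 libraries as FPKM values deposited by the authors. TopHat, Bowtie2, Cufflinks, Cuffdiff and the mm10 build are named per the submitters' processing notes, with no role given. Methylation came as a fraction per CpG, deposited by the authors for 2 libraries; which tools made it is not stated there. The 10 ChIP libraries were not analysed here. Results of 1 member are not reported here by name. Replicate files did not repeat each other.

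FPKM was transformed as log2(FPKM + 1), and a gene was kept where 3 or more libraries held 1 FPKM or more. limma 3.58.1 (R 4.3.3) was fitted to 5 group means with an intensity trend, no block and 10 residual degrees of freedom. p-values were adjusted by Benjamini-Hochberg over 13602 genes. In data simulated for ND1 against control at day 7, 97 of 100 genes changed by a log2 of 1.5 and 100 of 100 changed by 3 were called. The changes were added on the log2(FPKM + 1) scale to these genes only, with low starting levels raised. Recovery among weakly expressed genes, or where many genes change, was therefore not simulated. Sums, shares and methylation means were computed in Python 3.11.15. Methylation fractions were averaged over CpGs within 500 bases of RefSeq starts of GRCm38.p6, and all 181404 CpG positions that fall in promoter sequence read CG there. Depth in reads is unknown, which limits the precision of low values.

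Genes named were up to 10 called members per direction with no overlap between groups at day 2, at day 7 and against neurons, 11 defining members, and up to 4 called genes per pathway list. Genes outside it are marked, apart from Neurod1, cell type markers, members not tested, Slc1a5, Slc6a4, Slc7a2, Slc7a6, Slc7a6os and Slc38a3. The members and lists were chosen with earlier results of these data known. Alternatives changed the pseudocount, filter, scaling, call threshold, libraries, replicate block, methylation window and CpG minimum.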

Additional observations from a re-analysis of the deposited data

Results flagged for a closer look

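The ND1 effect differed between the days in members described here by limma's test of the difference itself, day 7 minus day 2, at an adjusted p under 0.05 and a size of at least 1. All values are differences of log2 changes. Members with a more positive effect at day 7 were the neutral exchanger Slc1a4 with 2.62, the large neutral carrier Slc7a5 with 2.60, the glutamate carrier Slc1a1 with 2.42, the vesicular carrier Slc6a17 with 2.16, Slc6a15 with 2.13, the GABA carrier Slc6a11 with 2.04, and the glycine carrier Slc6a9 with 1.75. Smaller positive differences were those of the cationic carriers Slc7a1 with 1.59 and Slc7a14 with 1.40, of Slc7a10 with 1.37 and of the glutamine carrier Slc38a1 with 1.14.

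Members with a more negative effect at day 7 were the light subunit Slc7a7 with -3.50, the carrier Slc43a2 with -2.16, Slc38a6 with -1.96, the taurine carrier Slc6a6 with -1.80, the heavy subunit Slc3a2 with -1.40, Slc7a8 with -1.04 and the creatine carrier Slc6a8 with -1.02. Neurod1 averaged 33.9 ± 2.40 FPKM in ND1 day 7 libraries and 3288 ± 195 in ND1 day 2 libraries (SD, n = 3 each), and its part in these differences was not tested.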

How the results depend on the processing

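Over 22 alternatives, 2482 of 2497 repeated member calls kept direction and side of the threshold, 15 kept direction but were no longer called, and 0 reversed. Quantile normalization accounted for 8 of the 15 and libraries left out for the other 7. Beside those given with the results, they were Slc6a8 with time in ND1 cells, at -0.95, and for its day difference, at -0.98, both after quantile normalization. The cause was not tested.

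Counts of called members moved with the size asked of a change. The share of all tested genes called under the same setting stands in parentheses. With no size asked, day 2 had 16 higher (31.6%) and 16 lower (36.3%), day 7 had 22 higher (46.5%), the day difference 19 higher (46.3%) and 14 lower (39.2%), ND1 cells with time 17 higher (48.5%), control microglia with time 8 higher (33.8%) and 18 lower (32.0%), neurons against control 17 lower (43.7%), and ND1 cells against neurons 10 higher (41.5%) and 22 lower (33.6%). A pseudocount of 0.1 gave 9 higher at day 2 (17.4%), 11 lower for the day difference (24.6%) and 4 higher against neurons (12.8%). Control microglia with time had 1 higher under a 5 FPKM filter (3.75%) and 1 after quantile normalization (3.14%).

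With 1 library left out at a time, the higher and lower counts ranged from 4 to 5 and 0 to 0 at day 2, 13 to 14 and 10 to 10 at day 7, 12 to 12 and 5 to 8 for the day difference, 11 to 12 and 12 to 13 in ND1 cells with time, 2 to 2 and 8 to 9 in control microglia with time, 17 to 17 and 6 to 6 for neurons against control, and 1 to 2 and 10 to 10 against neurons. The median day 2 share ranged from 14.6% to 15.5%, and was 16.1% with a floor of 1 FPKM. For promoter methylation of members, the median difference was -0.117 points in windows of 1000 bases and -0.0378 with at least 10 CpGs.

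With the replicate number as a block, every count was as without it: 4 and 0 at day 2, 13 and 10 at day 7, 12 and 7 for the day difference. Same-numbered libraries did not deviate together, with correlations from -0.226 to 0.161 over 30 pairs, 2 of them over 0.1. FPKM without read counts leaves the precision of low values unknown.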

Other observations

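Of the lysosomal and less studied members, Slc38a7 and Slc36a4 fell between day 2 and day 7 in ND1 cells and were lower, without a call, in control microglia. Slc38a7, a glutamine carrier of the lysosome, was listed at 12.6, 11.8 and 11.5 FPKM in ND1 day 7 libraries and at 35.4, 36.6 and 36.8 in ND1 day 2 libraries, a log2 change of -1.52, and in control microglia it was listed at 19.99, 21.4 and 21.6 FPKM at day 7 and 43.8, 40.9 and 43.8 at day 2, a log2 change of -0.99. Slc36a4 was listed at 10.4, 11.1 and 11.3 FPKM in ND1 day 7 libraries and at 26.5, 25.5 and 26.6 in ND1 day 2 libraries, a log2 change of -1.19, and in control microglia it was listed at 16.0, 20.5 and 20.9 FPKM at day 7 and 28.1, 27.8 and 27.4 at day 2, a log2 change of -0.52. Both were named after their values were seen. Slc7a2, the CAT2 carrier that brings arginine to macrophages, was listed at 0.814, 0.733 and 0.820 FPKM in ND1 day 7 libraries and at 1.90, 2.27 and 2.91 in control day 7 libraries, which do not overlap, with a log2 change of -0.90 that was not called.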
